A study of Mus musculus with 6 samples.

Results

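The genes examined here were listed as hormones and regulators of islet cells that are not beta cells. They are the hormone genes Gcg, Sst, Ppy, Pyy and Ghrl and the transcription factor genes Irx2, Fev and Hhex. The cells were MIN6B1, a beta cell tumour line of the mouse that secretes insulin in response to glucose. Members were all non-control probes whose accession names one of these 8 genes, which gave 9 of the 39429 probes of the array. Of these genes Irx2 had 2 probes and the other genes 1 each, and the probes of Gcg and Sst were each printed in 10 spots. Further probes of these genes may be among the 12195 probes whose accession matched no gene. In 3 samples the cells had received a small interfering RNA (siRNA) that targets circHIPK3, the circular transcript of Hipk3, and in 3 samples one that targets green fluorescent protein (siGFP). Total RNA was taken after 48 h and hybridised to single-colour Agilent arrays, 1 sample to an array. Separate cultures are not stated for the replicates, and the spread between samples behind each p-value may therefore be technical.

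In the islet, alpha cells make glucagon from the Gcg transcript, delta cells make somatostatin, PP cells make pancreatic polypeptide, and epsilon cells make ghrelin. Peptide YY is made in the gut and in some islet cells. These hormones act on their neighbours as well as at a distance: glucagon promotes insulin release from beta cells, and somatostatin restrains both insulin and glucagon. A mature beta cell keeps the genes of the other islet cells low.

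Levels are given as log2 of the processed signal over the 75th percentile of the array's signals, so that 0 is the 75th percentile and each step of 1 doubles the signal. Levels of different probes are not compared, because probes differ in brightness. Changes are circHIPK3 siRNA minus siGFP on this scale, each with its standard error (SE). Their p-values come from limma, were adjusted by Benjamini-Hochberg over the 25777 genes tested, of which 17161 carry a symbol, and were called at 0.05. The 75th percentile lay between 3421 and 3668 units on the circHIPK3 siRNA arrays and between 2939 and 3669 units on the siGFP arrays. Of all probes, 80.7% to 83.5% were well above background on the circHIPK3 siRNA arrays and 77.7% to 79.8% on the siGFP arrays. The file headers give 2 scans, taken here as 2 slides because the array positions recur: circHIPK3 siRNA replicates 2 and 3 lay on the second slide, and circHIPK3 siRNA replicate 1 and the 3 siGFP arrays on the first. The brighter Hipk3 probe had levels of 2.53, 2.89 and 2.51 on the circHIPK3 siRNA arrays and 2.69, 2.96 and 2.78 on the siGFP arrays. Whether it lies inside the exon that forms the circle is not given in the sources used here, so it checks neither the circular RNA nor the labels. All 11 beta cell markers, among them Ins1, Ins2, Pdx1 and Mafa, were well above background on all 6 arrays.

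Of the 8 genes, 7 were well above background on every array and 1, Hhex, on none. None of the 7 measured genes passed the test, where 1.18% of all genes did. At an unadjusted p under 0.05 the count was 3 of 7, Fev, Sst and Ppy, where 21.1% of all genes lay under it. The 7 changes ran from -0.59 for Gcg to 0.52 for Ppy, with 5 above and 2 below 0. Their median was 0.23 and that of all genes was 0.08. The groups did not overlap for 3 of the 7, Fev, Sst and Ghrl, against 25.9% of all genes. All 3 were higher with circHIPK3 siRNA, as were 16.6% of all genes, while 9.38% stood apart on the lower side. A drop or rise in a bulk sample cannot be assigned to fewer cells that carry a transcript or to less of it per cell, since the 2 cannot be told apart here.

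**Figure D1:**
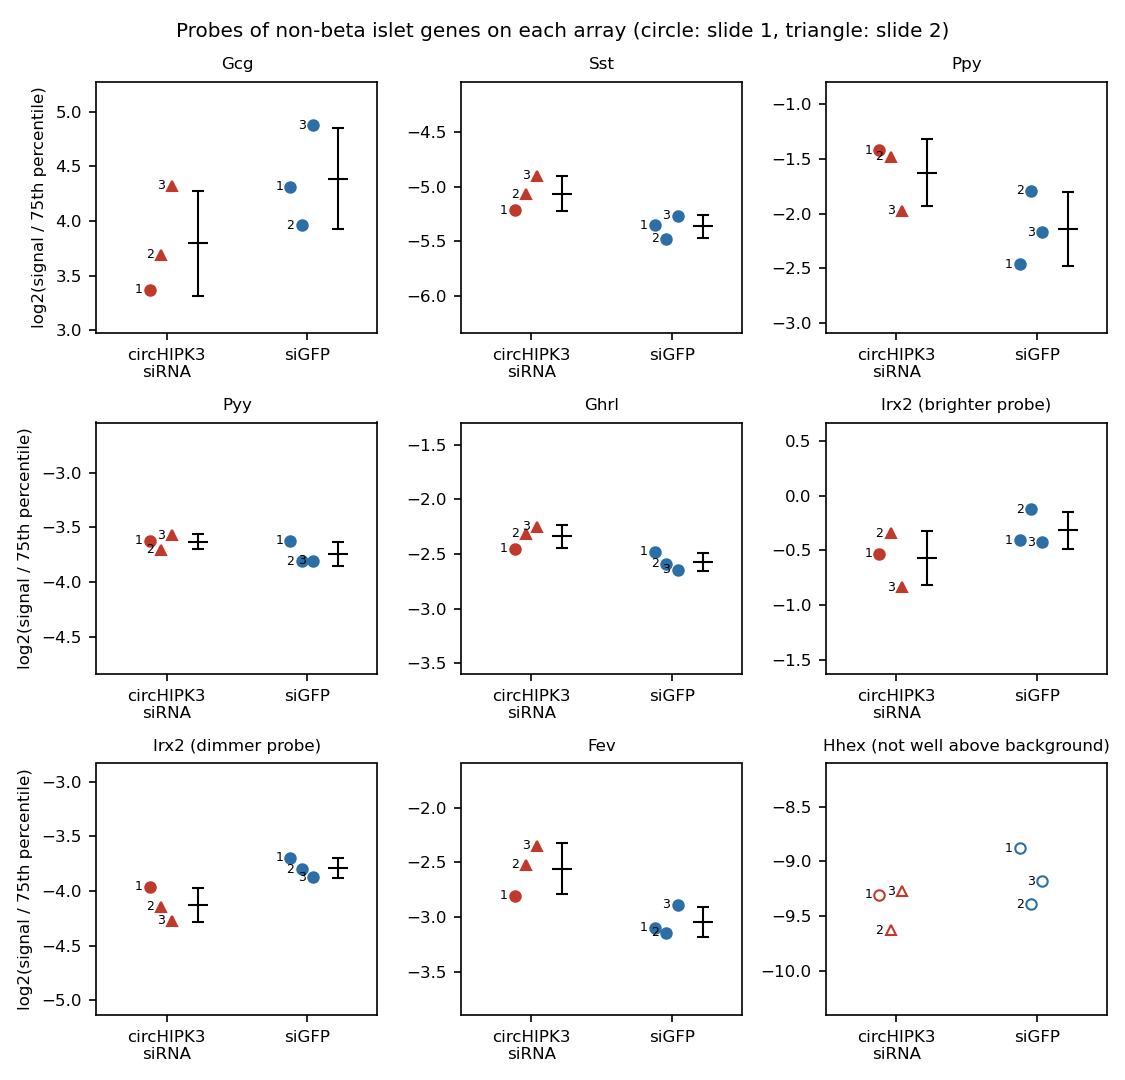
Level of each probe on each array, log2 of signal over the 75th percentile, with circHIPK3 siRNA in red on the left and siGFP in blue on the right; numbers are replicates, bars are the mean ± SD of 3 arrays, circles and triangles are the first and second slide, and open symbols are not well above background. The vertical span is the same in every panel, and Gcg and Ppy spread most, while Pyy spreads least.

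Gcg, which encodes the precursor of glucagon and of the incretin GLP-1, gave a clear signal in this insulin-secreting line. Its processed signal was 37235, 47389 and 68539 units on circHIPK3 siRNA replicates 1, 2 and 3, against 58481, 57257 and 99620 units on siGFP replicates 1, 2 and 3. No spot was saturated. On the scaled axis the levels were 3.37, 3.69 and 4.32 with circHIPK3 siRNA and 4.31, 3.96 and 4.88 with siGFP. Replicate 3 was the highest array in both groups, and circHIPK3 siRNA replicate 3 lay above siGFP replicates 1 and 2, so the groups overlapped. The change was -0.59 ± 0.30 (SE), a ratio of 0.665 of circHIPK3 siRNA to siGFP, with a limma adjusted p of 0.292 and a 95% interval from -1.28 to 0.11. An exact two-sided permutation test of the 6 values gave p = 0.30, and with 3 arrays in each group such a test cannot go below 0.10. The interval includes no change and, at its lower end, a level 2.44-fold lower. With slide as a fixed block the value was -1.01. That fit sets circHIPK3 siRNA replicate 1 alone against siGFP, since the second slide holds no siGFP array. The change was -0.38 without circHIPK3 siRNA replicate 1 and -0.34 without siGFP replicate 3.

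The 10 spots of the Gcg probe give the error of reading 1 array. Between 9 and 10 spots per array were used, and their coefficient of variation was 2.01% to 4.90% on each array. On the log2 scale the SD between spots was 0.03 to 0.07, whereas the SD between arrays was 0.48 with circHIPK3 siRNA and 0.46 with siGFP (n = 3 each). Of all genes tested, 96.5% had a smaller pooled SD between arrays of a group than Gcg, whose value was 0.47. When genes were divided by level into 4 equal groups, the median SD in the highest, to which Gcg belongs, was 0.11. Spots of 1 array thus differed far less than arrays of 1 group. Sst, measured with 8 to 10 used spots, had a coefficient of variation of 5.51% to 11.2% between spots. Its log2 SD between spots was 0.08 to 0.16, and between arrays 0.16 with circHIPK3 siRNA and 0.11 with siGFP.

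**Figure D2:**
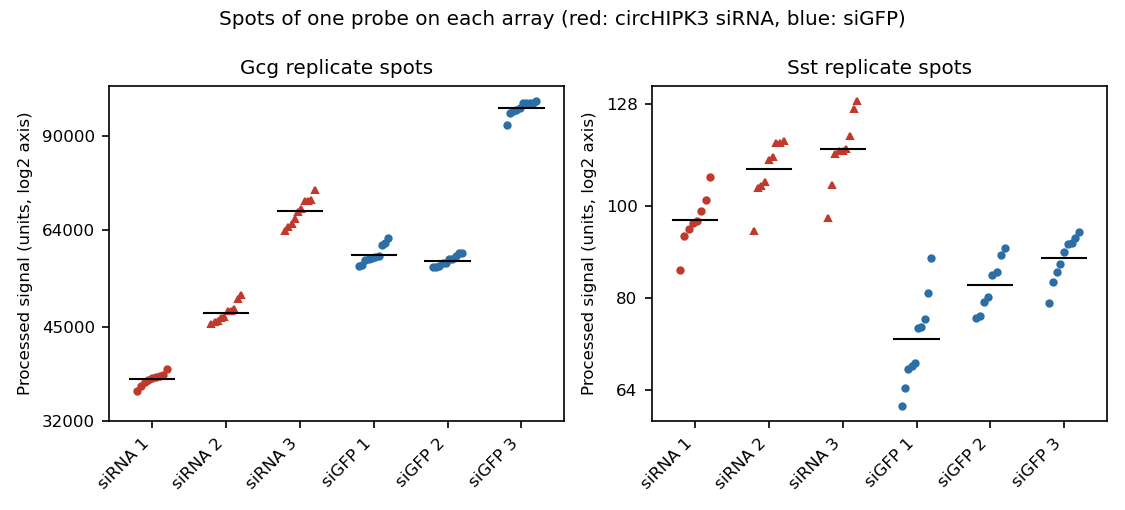
Processed signal, in units on a log2 axis, of each used spot of the Gcg probe (left) and the Sst probe (right) on circHIPK3 siRNA arrays (red) and siGFP arrays (blue); spots are sorted by value, bars are means, and triangles are the second slide. Gcg spots of an array lie close together and arrays lie far apart, whereas Sst spots range over 61.5 to 129 units with neighbouring arrays overlapping.

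Sst encodes somatostatin, the inhibitory hormone of delta cells. Its signal was low, 96.6, 109 and 115 units on circHIPK3 siRNA replicates 1 to 3 and 72.3, 82.6 and 88.0 units on siGFP replicates 1 to 3, yet well above background in every spot used. The scaled levels were -5.22, -5.07 and -4.90 with circHIPK3 siRNA, against -5.35, -5.48 and -5.27 with siGFP. All 3 circHIPK3 siRNA arrays lay above all 3 siGFP arrays, the nearest pair being 0.05 apart. The change was 0.30 ± 0.12 (SE), or 1.23-fold higher, with a limma adjusted p of 0.209. Sst belongs to the lowest of the 4 level groups, whose median change was 0.28. Under quantile normalization it was 0.08, with normexp background correction 0.10 and with median scaling 0.20, and in all 3 the groups overlapped. With slide as a fixed block, from circHIPK3 siRNA replicate 1 alone against siGFP, it was 0.15.

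Ppy encodes pancreatic polypeptide, the hormone of PP cells, and Pyy its relative peptide YY. The genes lie side by side on chromosome 11, Ppy at chr11:102099931-102101319 and Pyy at chr11:102106676-102107832 (GRCm38.p6), with 5356 bases between them. Ppy levels were -1.42, -1.48 and -1.97 with circHIPK3 siRNA, against -2.46, -1.79 and -2.17 with siGFP. The siGFP range took in circHIPK3 siRNA replicate 3, and both other circHIPK3 siRNA arrays lay above it. The change was 0.52 ± 0.21 (SE), or 1.43-fold higher, with a limma adjusted p of 0.222 and a 95% interval from 0.02 to 1.01. Pyy levels were -3.62, -3.71 and -3.57 with circHIPK3 siRNA, against -3.62, -3.81 and -3.81 with siGFP, a change of 0.11 ± 0.10 (SE, limma adjusted p = 0.543). The 95% interval for Pyy, -0.13 to 0.35, reached a rise of 1.27-fold at its upper end in this scaling. The direction of Pyy was not fixed, since quantile normalization gave -0.03. Whether Ppy and Pyy differ in their change was not tested.

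Ghrl encodes ghrelin, the hormone of epsilon cells, which is acylated by the enzyme that Mboat4 encodes. Ghrl levels were -2.45, -2.32 and -2.25 with circHIPK3 siRNA, against -2.48, -2.59 and -2.64 with siGFP. The groups did not overlap, but their nearest arrays, circHIPK3 siRNA replicate 1 and siGFP replicate 1, were 0.03 apart. The change was 0.23 ± 0.10 (SE), or 1.17-fold higher, with a limma adjusted p of 0.250. With normexp background correction the groups overlapped. With slide as a fixed block the change was 0.12, again from circHIPK3 siRNA replicate 1 alone against siGFP. Mboat4, named for this role and after its values were seen, had levels of -5.63, -5.65 and -4.79 with circHIPK3 siRNA and -3.84, -5.39 and -4.91 with siGFP, with overlapping groups and a change of -0.65 ± 0.41 (SE, limma adjusted p = 0.380).

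Printed here are the promoters of the 3 hormone genes whose window, from 250 bases before to 50 after the annotated start, holds a TATA box (TATAAA) or a cAMP response element (TGACGTCA), to show the sequence from which the measured transcripts start. They come from RefSeq in build GRCm38.p6, read 5′ to 3′ on the gene's strand, and capitals mark either motif on either strand. All 8 genes matched an entry.
Gcg (chr2:62483604-62483903, minus strand): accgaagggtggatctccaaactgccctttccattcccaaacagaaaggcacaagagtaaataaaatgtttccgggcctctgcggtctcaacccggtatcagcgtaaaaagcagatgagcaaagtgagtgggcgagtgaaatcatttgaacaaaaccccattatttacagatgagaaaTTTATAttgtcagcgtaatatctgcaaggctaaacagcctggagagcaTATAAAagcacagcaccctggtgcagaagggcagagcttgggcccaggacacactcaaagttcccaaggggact
Sst (chr16:23890795-23891094, minus strand): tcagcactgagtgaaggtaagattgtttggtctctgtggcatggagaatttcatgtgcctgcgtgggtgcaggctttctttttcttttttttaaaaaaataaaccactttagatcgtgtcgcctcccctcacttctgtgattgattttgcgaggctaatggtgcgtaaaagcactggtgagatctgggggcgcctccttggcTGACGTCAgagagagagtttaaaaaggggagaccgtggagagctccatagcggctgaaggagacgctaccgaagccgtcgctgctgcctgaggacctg
Ppy (chr11:102101270-102101569, minus strand): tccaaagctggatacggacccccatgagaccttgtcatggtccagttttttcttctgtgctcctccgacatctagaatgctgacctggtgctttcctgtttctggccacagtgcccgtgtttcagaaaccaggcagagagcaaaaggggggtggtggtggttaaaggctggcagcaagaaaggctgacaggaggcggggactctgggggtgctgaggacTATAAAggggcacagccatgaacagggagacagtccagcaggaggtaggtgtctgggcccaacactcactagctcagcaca
The Gcg window holds TATAAA at -24 and, on the other strand, at -72 from the start, and the Ppy window holds it at -31. The Sst window holds TGACGTCA at -48. Among 32851 promoter windows of the same length, 13.6% hold TATAAA and 1.79% hold TGACGTCA on either strand. Neither motif is in the windows of Fev, Ghrl, Hhex, Irx2 and Pyy, which says only that these letters are not in those windows. A match is a description of the sequence, and no measurement here bears on a factor at these promoters.

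Among the transcription factors, Irx2, an Iroquois homeobox gene enriched in alpha cells, was read by 2 probes. The brighter probe had levels of -0.53, -0.35 and -0.84 with circHIPK3 siRNA, against -0.41, -0.12 and -0.43 with siGFP, and the groups overlapped. Its change was -0.25 ± 0.15 (SE, limma adjusted p = 0.368). The dimmer probe had levels of -3.96, -4.14 and -4.27 with circHIPK3 siRNA, against -3.69, -3.80 and -3.87 with siGFP, with every circHIPK3 siRNA array below every siGFP array. The limma fit over all 31380 kept probes gave it -0.34 ± 0.12 (SE, adjusted p = 0.170). Both probes had negative changes and neither passed. The groups of the dimmer probe also stayed apart with quantile normalization, median scaling and normexp.

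Fev encodes an ETS transcription factor known from serotonin neurons and from endocrine progenitors of the mouse pancreas. Its levels were -2.80, -2.52 and -2.35 with circHIPK3 siRNA, against -3.10, -3.15 and -2.89 with siGFP. The groups did not overlap, and circHIPK3 siRNA replicate 1 lay nearest to siGFP, 0.08 above siGFP replicate 3. The change of 0.49 ± 0.14 (SE), or 1.40-fold higher, had the smallest p of the 7 genes, with a limma adjusted p of 0.133. It passed when circHIPK3 siRNA replicate 1 was left out, at 0.61 ± 0.13 (SE, limma adjusted p = 0.0449), which leaves the groups on separate slides, so that slide and group cannot be told apart there. With slide as a fixed block, where the first slide alone holds both groups, the change was 0.24, from circHIPK3 siRNA replicate 1 alone against siGFP. The median change of the level group that holds Fev, Ghrl, Ppy and Pyy was 0.15.

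Hhex encodes a homeobox factor needed for delta cell identity in mice. Its 1 probe gave 5.67, 4.63 and 5.52 units on the circHIPK3 siRNA arrays and 6.22, 5.45 and 5.83 units on the siGFP arrays. The lowest signal of any spot that was well above background lay between 21.9 and 27.3 units per array, so Hhex was not well above background on any array and no change is given. With a single probe, a low transcript and a probe that binds poorly cannot be told apart.

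**Figure D3:**
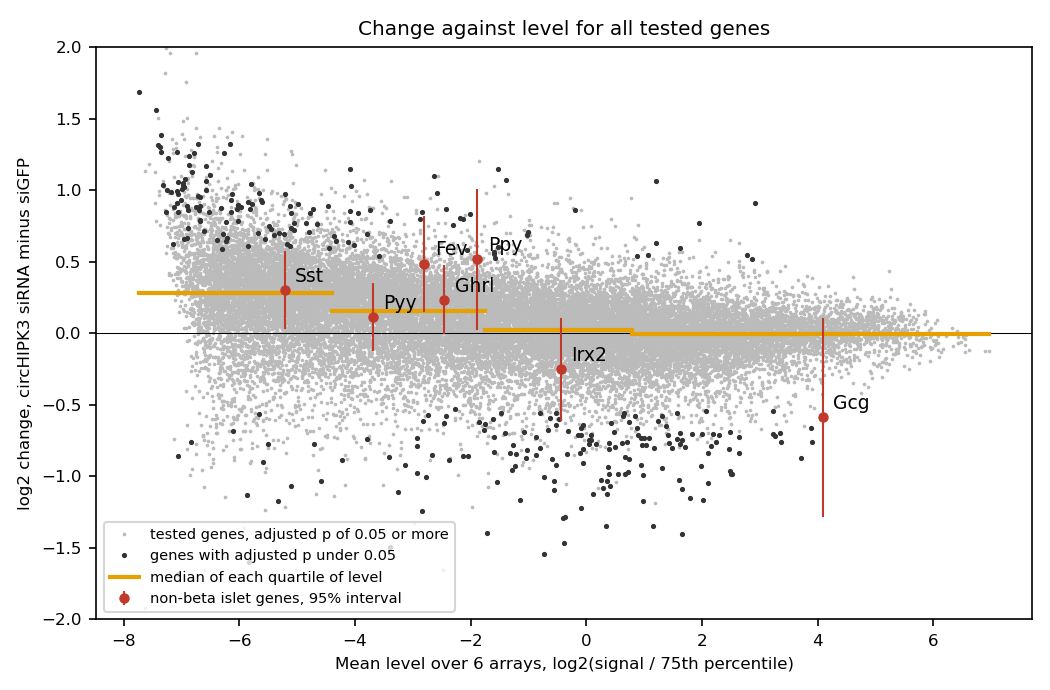
Change, circHIPK3 siRNA minus siGFP in log2, against the mean level over 6 arrays for all tested genes (grey, or black where the adjusted p is under 0.05). The 7 measured genes are in red with their 95% intervals. Yellow lines are the medians of 4 equal groups by level, and 4 genes lie outside the plot. The medians run from 0.28 in the lowest group to -0.01 in the highest, Sst lies near the line of its group, and Gcg and Irx2 lie below theirs.

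The level of a gene went with the direction of its change across the whole array. The median change was 0.28, 0.15, 0.02 and -0.01 in the 4 groups from the lowest to the highest level. The 5 members with changes above 0 came from the 2 lower groups, and the 2 below 0, Irx2 and Gcg, from the 2 higher ones. In the lowest level group, which holds Sst, the circHIPK3 siRNA and siGFP arrays stood apart toward higher values for 28.5% of genes. In the next, which holds Fev and Ghrl, they did so for 17.0%. These shares are over all tested genes, some of which entered the test through a single group. The part of this trend in the changes of the members was not tested.

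Other genes enriched in alpha, delta, PP or epsilon cells were examined beside the members. Of 16 listed, 14 were tested and none passed in either direction, with a median change of 0.02. Genes of secreted proteins that alpha cells make in quantity were measured on all arrays: Ttr, which encodes transthyretin, gave 57254 to 80581 units with circHIPK3 siRNA and 59269 to 98910 units with siGFP, and the brighter probe of Gc, which encodes the vitamin D binding protein and was named after its values were seen, gave 42127 to 54907 units with circHIPK3 siRNA and 46386 to 56439 units with siGFP. Ttr, named after its values were seen, shared with Gcg that replicate 3 was the highest array of both groups, and its change was -0.22 ± 0.20 (SE, limma adjusted p = 0.538). The list members with the smallest p were Meis2 at 0.44 ± 0.14 (SE), Irx1 at 0.81 ± 0.27 (SE) and the cationic amino acid transporter gene Slc7a2 at -0.30 ± 0.18 (SE), with limma adjusted p-values of 0.143, 0.160 and 0.352.

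The Iroquois relatives of Irx2 were Irx1, Irx4 and Irx6, which were measured, and Irx3 and Irx5, which were not well above background on any array. Irx1, which lies with Irx2 in a gene cluster, had levels of -5.04, -4.22 and -3.97 with circHIPK3 siRNA, against -5.02, -5.41 and -5.24 with siGFP. circHIPK3 siRNA replicates 2 and 3, which are on the second slide, stood above all arrays of the first slide, while circHIPK3 siRNA replicate 1 fell within the siGFP range. Irx4 and Irx6 gave 0.25 ± 0.17 and 0.20 ± 0.20 (SE), with limma adjusted p-values of 0.434 and 0.574. Whether the change of Irx2 differs from theirs was not tested.

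Transcription factors shared by several islet cell types were measured for 23 of 27 listed genes, none passed, and the median change was -0.02. Neurog3, the factor that starts the endocrine programme in pancreatic progenitors, came nearest to the threshold. Its levels were 2.80, 3.01 and 2.85 with circHIPK3 siRNA, against 2.47, 2.33 and 2.42 with siGFP, a change of 0.48 ± 0.10 (SE, limma adjusted p = 0.0701) with no overlap. Hnf4a, a hepatocyte nuclear factor gene that acts in beta cells, lay at -0.32 ± 0.10 (SE, limma adjusted p = 0.155).

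The receptors through which these and related peptide hormones act were measured for 13 of 15 listed genes, and none passed. Ghsr, the ghrelin receptor gene, had levels of -6.27, -6.15 and -6.41 with circHIPK3 siRNA, against -5.31, -5.83 and -5.62 with siGFP. The groups did not overlap, and the change was -0.69 ± 0.15 (SE, limma adjusted p = 0.0747). Sstr2, a somatostatin receptor gene, was well above background on all 3 circHIPK3 siRNA arrays and on no siGFP array. It entered the test only through its circHIPK3 siRNA arrays, so no fold or p is given for it. The measured values overlapped, since circHIPK3 siRNA replicate 1 lay at -6.95 and siGFP replicate 3 at -6.93. Gipr, the receptor gene for the incretin GIP, lay at -0.27 ± 0.09 (SE, limma adjusted p = 0.166). Over the list the median change was 0.20, with 8 above and 5 below 0. Sstr2 is counted among the 8, although its place in the test came from its circHIPK3 siRNA arrays alone.

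Enzymes and helpers that cut, modify or degrade peptide hormones were measured for 11 of 13 listed genes, with none past the threshold and a median of 0.06. Pcsk1, the prohormone convertase that releases GLP-1 from proglucagon, lay at 0.39 ± 0.14 (SE, limma adjusted p = 0.175). Pcsk2, the convertase that releases glucagon itself, named after its value was seen, lay at -0.16 ± 0.09 (SE, limma adjusted p = 0.356). The smallest p-values after Pcsk1 belonged to the convertase gene Furin at -0.30 ± 0.11 and the neprilysin gene Mme at 0.49 ± 0.18 (SE). Of 22 other peptide hormone genes 19 were tested and none passed, with a median of 0.03. The smallest p-values were those of Ghrh at 0.55 ± 0.23, Npy, the neuropeptide relative of Ppy and Pyy, at -0.39 ± 0.16, and Cort, the cortistatin relative of Sst, at 0.17 ± 0.13 (SE). The 11 beta cell markers had a median of -0.12 with none called. Slc2a2, the gene of the glucose transporter GLUT2, had levels of -5.40, -4.46 and -4.94 with circHIPK3 siRNA, against -3.87, -3.78 and -3.75 with siGFP. Its groups stood apart, and the change of -1.14 ± 0.22 (SE, limma adjusted p = 0.0583) was the largest in these lists. Slc30a8, a zinc transporter gene of insulin granules, lay at -0.33 ± 0.10 (SE, limma adjusted p = 0.127), also without overlap.

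**Figure D4:**
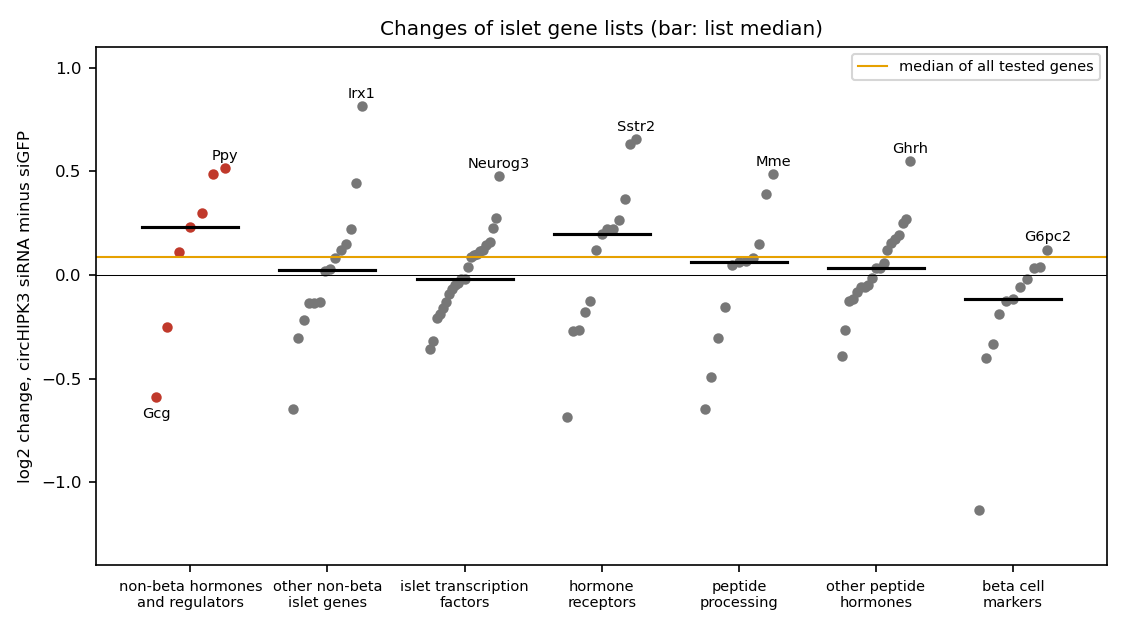
Change, circHIPK3 siRNA minus siGFP in log2, of each tested gene in 7 lists, with the list median as a bar and the median of all tested genes as a yellow line; the highest gene of each list is named, as is Gcg. No gene of these lists passed the test, and the list labelled non-beta hormones and regulators runs from -0.59 to 0.52. Sstr2, the receptor gene named, entered the test only through its circHIPK3 siRNA arrays, so its plotted position is not read as a change.

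Markers of cell types outside the islet's endocrine lineages were set beside these results. None of the genes in these 5 lists passed the test. The median change was 0.24 over the 8 tested of 10 acinar genes, 0.22 over 5 of 6 duct genes, 0.05 over 3 of 5 mesenchymal genes, 0.08 over 3 of 4 endothelial genes and 0.22 over 3 of 4 immune genes. Sox9, Pdgfra and Cdh5, defining genes of duct, mesenchyme and endothelium, were not well above background on any array. The smallest p of each list belonged to Bhlha15 at -0.70 ± 0.23, Spp1 at 0.47 ± 0.15, Col3a1 at 0.52 ± 0.15, Pecam1 at 0.30 ± 0.14 and Adgre1 at 0.26 ± 0.18 (SE). Summed signals, in multiples of the 75th percentile, follow the brightest probes and are no measure of a cell type's share. The acinar sum was 3.29 to 4.50 with circHIPK3 siRNA and 4.15 to 7.17 with siGFP, and it was mostly Bhlha15. The change of Bhlha15 was negative, while 5 of the 8 acinar genes had changes above 0. These 5 and the acinar median include Cela2a, which was well above background on 3 circHIPK3 siRNA arrays and 2 siGFP arrays. Cela2a thus entered the test only through its circHIPK3 siRNA arrays. The duct sum was 14.9 to 21.3 with circHIPK3 siRNA and 13.1 to 14.4 with siGFP, mostly from Spp1 and Krt7. Mesenchymal genes summed to 0.26 to 0.31 with circHIPK3 siRNA and 0.27 to 0.32 with siGFP, endothelial genes to 3.34 to 4.41 with circHIPK3 siRNA and 3.90 to 4.92 with siGFP, and immune genes to 0.81 to 1.24 with circHIPK3 siRNA and 0.79 to 1.00 with siGFP. The part of these cell types in the changes of the islet hormones was not tested.

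The genes most like each member over the 6 arrays were found among 16526 other genes well above background on all arrays, by Pearson's r of the level. The 3 nearest to Gcg were Opn5, Zfp330 and Hapln1, those nearest to Sst were Krt80, Fzd9 and Gbp10, and those nearest to Ppy were Enpp5, Brca2 and P4ha1. Pyy had Vmn1r181, 1810024B03Rik and Prss1, Ghrl had Rbfox1, Sult1a1 and Ehbp1, Irx2 had B330016D10Rik, Adk and Brd9, and Fev had Dpep1, Olfr584 and Cers5. With so few arrays such likeness is common: 158 genes exceeded an r of 0.9 with Gcg and 1091 with Sst. These names describe the 6 arrays, which share slides and groups, and say nothing of shared control.

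**Figure D5:**
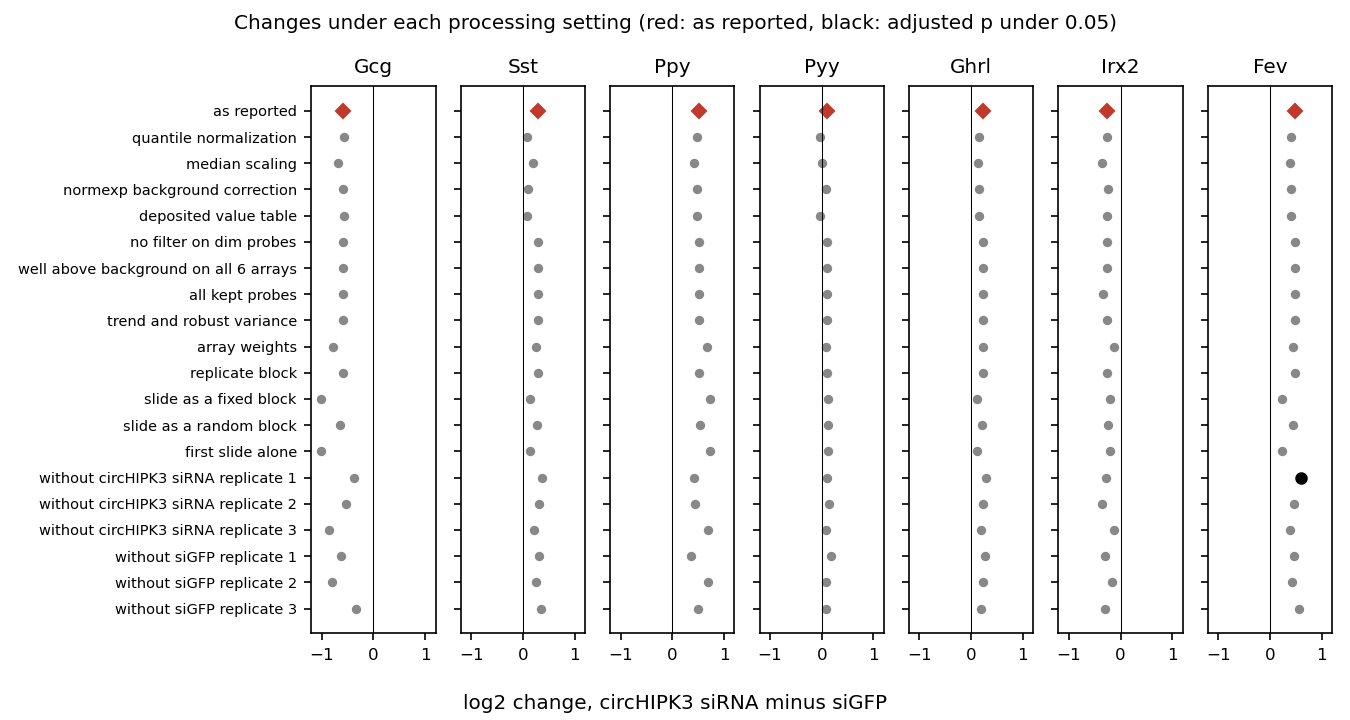
Change, circHIPK3 siRNA minus siGFP in log2, of the 7 measured genes as reported (red diamonds) and under each of 19 alternatives. The alternatives are grey, or black where the adjusted p was under 0.05. Fev without circHIPK3 siRNA replicate 1 is the one black point, Gcg runs from -1.01 to -0.34, and Pyy crosses 0. The value of -1.01 rests on circHIPK3 siRNA replicate 1 alone against siGFP.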

How the data were processed

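Total RNA of 6 MIN6B1 samples was labelled with Cy3, as the labels state. Per the file headers, the authors' scanner output is from Agilent Feature Extraction 11.0.1.1 and gives each spot a processed linear intensity, raw foreground and background intensities and quality flags. A deposited table of log2 values for 31868 probes has columns with near-equal quantiles, so its values were normalized between arrays by the authors in a way not given in the sources used here. It served as an alternative.

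From the scanner files, spots with a non-uniformity or population-outlier flag were dropped, log2 intensities had the array's 75th percentile subtracted, and spots of a probe were averaged. A probe was kept if all 3 arrays of either group read it well above background, which left 31380, and the brightest probe stood for a gene. No probe was saturated. Accessions matched a RefSeq table (GRCm38.p6) for 27234 probes, and 12195 stayed unmatched. The array design uses another build, so coordinates are those of the RefSeq table. Tests used limma 3.58.1 in R 4.3.3 with group as the only term. The procedure was tested on simulated data with independent noise and no slide effect, which does not bear on the uneven slides here. Exact permutation tests used scipy 1.17.1 and figures matplotlib 3.10.9. The number of arrays limits the precision.

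The members and gene lists were chosen with earlier results of these data known. Named genes were all members, per list the called genes or else up to 3 with the smallest p, the 3 genes most like each member, and Hipk3; Ins1, Ins2, Pdx1, Mafa, Mboat4, Gc, Ttr, Pcsk2 and Krt7 were added later, and some listed genes are not reported here. Alternatives were other normalization, background correction, probe filter, probe choice, variance model, array weights, slide or replicate block, and each array left out. Probe and siRNA sequences were not used here. Whether matching replicate numbers pair the arrays was not settled, and the fit as reported did not pair them.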

Additional observations from a re-analysis of the deposited data

How the results depend on the processing

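Over 19 alternatives, Gcg, Sst, Ppy, Ghrl, Irx2 and Fev kept their direction, and no member passed except Fev without circHIPK3 siRNA replicate 1 (0.61), so that the count of members called was 0 to 1 on leaving out an array. Pyy turned to -0.027 under quantile normalization and to -0.027 with the deposited value table. With slide as a fixed block Gcg moved to -1.01, Sst to 0.15, Ghrl to 0.12 and Fev to 0.24. These values, like those of the first slide alone, rest on circHIPK3 siRNA replicate 1 as the only circHIPK3 siRNA array. Both settings gave the same member changes and are no separate checks, though both are counted among the 19. Without siGFP replicate 3 Gcg moved to -0.34. Changes on leaving out an array ran from -0.85 to -0.34 for Gcg, 0.22 to 0.38 for Sst, 0.36 to 0.69 for Ppy, 0.08 to 0.17 for Pyy, 0.19 to 0.29 for Ghrl, -0.37 to -0.12 for Irx2 and 0.38 to 0.61 for Fev. Over all genes 303 were called (138 higher, 165 lower), against 244 with quantile normalization (42 higher, 202 lower), 607 with median scaling (204 higher, 403 lower), 279 with normexp (38 higher, 241 lower), 185 with the value table (34 higher, 151 lower), 622 with trend and robust variance, 872 with array weights and 124 with slide as a random block. By limma 0 were called without a filter on dim probes (5631 at an unadjusted p under 0.05) and with the replicate block (5135). No counts are given for slide as a fixed block and the first slide alone, which leave 1 circHIPK3 siRNA array. On leaving out an array the count was 0 to 1737. Same-numbered arrays had correlations of deviations from the group means of -0.02, 0.27 and -0.13. So few arrays, spread unevenly over the slides, do not settle whether the numbers pair the samples. With the replicate block no member passed. The change of Gcg stayed at -0.59 with an SE of 0.15 (limma adjusted p = 0.150), against an SE of 0.30 without the block. For Pyy and Ghrl the SE was larger with the block. The medians of the 6 lists, less that of all genes, stayed within the spread between replicates in 95 of 114 comparisons. Median scaling, trend and robust variance and the replicate block cannot move these values, so their part of the 95 was fixed in advance. The list of shared islet transcription factors moved most often, for example from -0.10 to -0.01 under quantile normalization. The cause of these shifts was not tested. Signal over background limits Sst, and leaves Hhex without a change.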
